A study of Arabidopsis thaliana with 6 samples.

Results

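GPAT1 to GPAT8 are the glycerol-3-phosphate acyltransferases of Arabidopsis thaliana that belong to the land-plant family known for the lipid polyesters cutin and suberin. The 8 genes were chosen by locus identifier, each was represented by 1 probe, and together they are 8 of 35475 gene identifiers on the array. They were measured in 14-day-old seedlings of 2 transgenic groups, with 3 arrays per group. One overexpresses sORF2146, a small open reading frame, and the other carries the empty vector pMDC32. Both groups grew on MS medium with light for 14 hours and dark for 10 hours, and total RNA of whole seedlings was labelled with Cy3. The labels do not say whether the 3 replicates of a group came from separate transgenic lines, and pMDC32 is named for the control group alone. The family was chosen with the differences between these groups known, including that of GPAT7. Differences of the members are therefore given as a description, and nothing rests on them.

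Each of these enzymes transfers a fatty acyl group to glycerol 3-phosphate. Cutin, the polyester of the shoot cuticle, and suberin, the polyester of the root endodermis, the seed coat and wound tissue, are built from oxidised fatty acids that such enzymes join to glycerol. GPAT4, GPAT6 and GPAT8 are known for cutin, GPAT5 and its close relative GPAT7 for suberin-type products, and GPAT1 for the tapetum of the anther and male fertility. The roles of GPAT2 and GPAT3 are less settled. Cytochromes P450 of the CYP86 group oxidise the fatty acids, BAHD acyltransferases add ferulate or caffeate, fatty acyl reductases make the alcohols, ABCG transporters export the products, and several MYB factors switch on suberin genes.

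Between 65.3% and 68.8% of the 35635 probes that are not controls were well above background on an array, and no spot was saturated. The processed signal is the intensity that the scanner software gives after background subtraction. Its 75th percentile was between 817 and 997 on the overexpressor arrays and between 1098 and 1170 on the control arrays, and the scaled signal is log2 of the processed signal minus log2 of that percentile. The log2 differences given are overexpressor minus control. The 3 overexpressor arrays shared a slide and the 3 control arrays another, so a slide effect and a group difference cannot be told apart. No probe is named sORF2146, so the labels could not be checked against its level. A probe measures its own gene only on its own scale, so levels are compared between arrays and not between genes. Close members of the family could cross-hybridise, which was not tested because probe sequences were not used here.

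GPAT7 (AT5G06090), which makes suberin-type glycerol esters when overexpressed, had the largest difference of the family. Its processed signal was 51.6, 48.3 and 39.2 on overexpressor replicates 1, 2 and 3 and 23.6, 22.5 and 19.2 on the control replicates. Every overexpressor array lay above every control array, and the spot error that the software reports was between 10.6% and 12.9% of the signal. On the scaled log2 scale the means were -4.30 ± 0.24 (SD, n = 3) in the overexpressor and -5.70 ± 0.12 (SD, n = 3) in the control. The difference was 1.40 (SE 0.14), or 2.64-fold, and the gap of 1.08 between the groups was wider than the range of 0.47 within the overexpressor. The signal was dim. The raw spot median was 103, 97 and 90 on the overexpressor arrays and 71, 73 and 73.5 on the control arrays, over local backgrounds between 22 and 27.5. Other background corrections started from the raw spot median and the local background and added an offset of 50. With them the difference was 0.65 for subtraction and 0.60 for normexp. An offset draws dim values together, but the background estimate changed as well, and the part of each was not tested.

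GPAT5 (AT3G11430), required for the suberin of roots and seed coats, was also higher in the overexpressor. Its processed signal was 987, 963 and 620 on the overexpressor arrays and 442, 493 and 449 on the control arrays. The groups did not overlap, although overexpressor replicate 3 lay well below the other overexpressor arrays. The scaled means were -0.11 ± 0.41 (SD, n = 3) and -1.29 ± 0.11 (SD, n = 3), and the difference was 1.18 (SE 0.21), or 2.26-fold. Replicate 3 was also the lowest overexpressor array for GPAT7. GPAT5 is much brighter on its probe than the background, and its difference was 1.10 with subtraction and 1.06 with normexp. The authors' deposited table, normalized between arrays, gave a difference of 1.20 for GPAT5 and 1.55 for GPAT7.

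**Figure D1:**
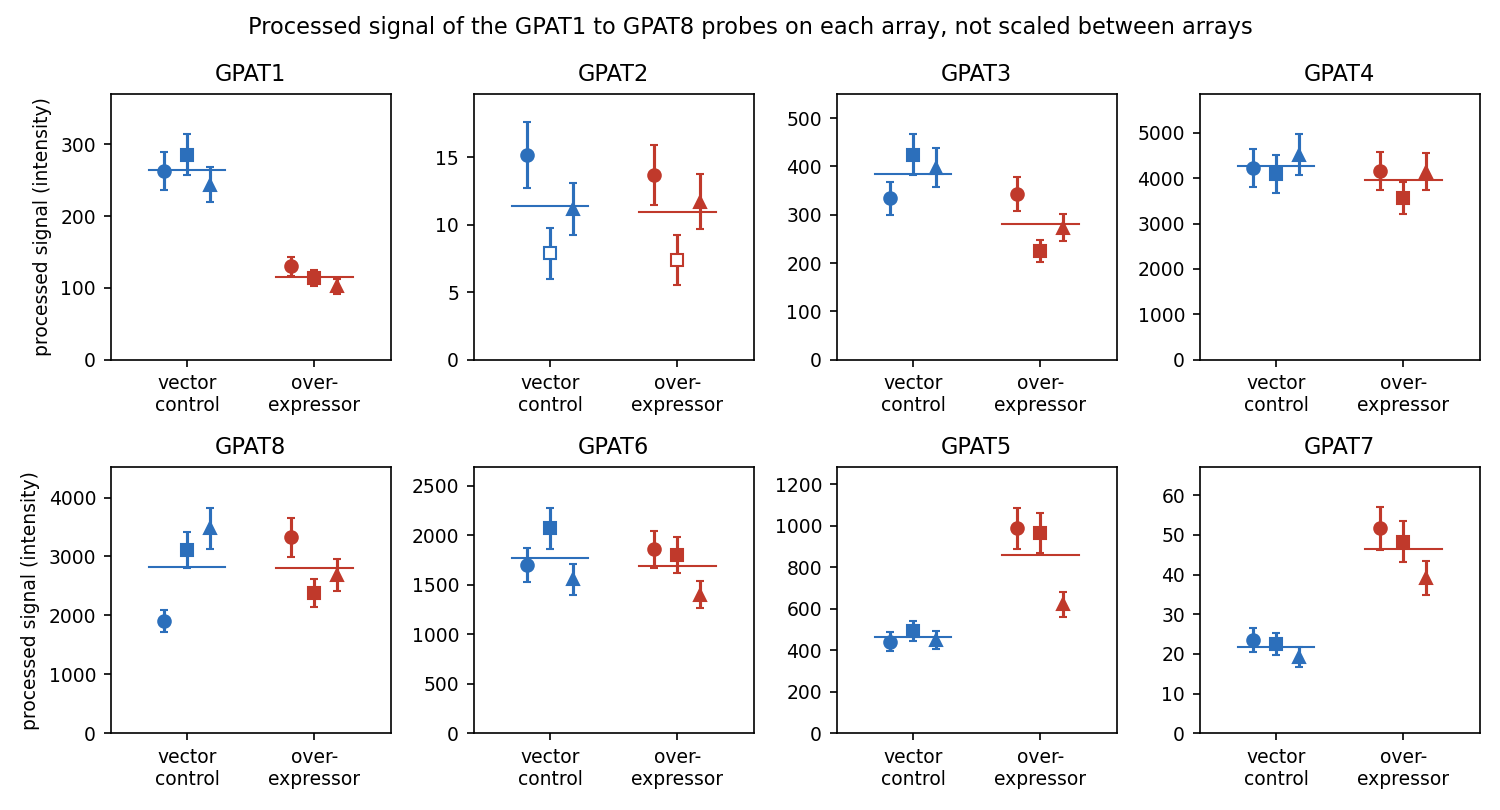
Processed signal (intensity, linear axis from 0) of the probe of each GPAT on each array, before scaling between arrays. Circles, squares and triangles are replicates 1, 2 and 3, vertical bars are the spot error reported by the scanner software, horizontal lines are group means, and open symbols are spots not well above background. GPAT5 and GPAT7 lie higher and GPAT1 lower on all 3 overexpressor arrays (red) than on any control array (blue).

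GPAT1 (AT1G06520), a member of the family known for pollen development, went the other way. Its processed signal was 129.9, 113.5 and 102 on the overexpressor arrays and 263, 285 and 244 on the control arrays. The groups did not overlap, and the lowest control array was well above the highest overexpressor array. The scaled means were -2.99 ± 0.16 (SD, n = 3) and -2.10 ± 0.11 (SD, n = 3), with a difference of -0.89 (SE 0.12), or 1.85-fold lower. The difference was -0.54 with subtraction and -0.47 with normexp. None of the tapetum markers AMS, DYT1 and MS2 was well above background, on any of the 6 arrays.

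GPAT4 (AT1G01610) and GPAT8 (AT4G00400), which act together in the cutin of leaves and stems, differed little between the groups. The scaled signal of GPAT4 was 2.06, 2.12 and 2.18 in the overexpressor and 1.86, 1.88 and 2.04 in the control. The groups of GPAT4 just missed each other, with a gap of 0.0241, and the difference was 0.20 (SE 0.0860) with this scaling but -0.12 with no scaling and -0.07 with spike-in scaling. The scaled signal of GPAT8 was 1.74, 1.54 and 1.55 in the overexpressor and 0.70, 1.48 and 1.66 in the control. Vector control replicate 1 stood alone below the other arrays, the groups overlapped, and the difference of 0.33 (SE 0.26) was 0.04 without that array. GPAT6 (AT2G38110), which makes the cutin of petals, had a scaled signal of 0.90, 1.14 and 0.61 in the overexpressor and 0.54, 0.89 and 0.50 in the control. Its groups overlapped, with a difference of 0.24 (SE 0.17) that was -0.08 with no scaling and -0.03 with spike-in scaling.

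GPAT2 and GPAT3 form a separate branch of the family. GPAT3 (AT4G01950) had a scaled signal of -1.54, -1.86 and -1.75 in the overexpressor and -1.81, -1.40 and -1.47 in the control. Its groups overlapped, and the difference was -0.16 (SE 0.15), or 0.03 with normexp. GPAT2 (AT1G02390) was near the detection limit, at a processed signal of 13.7, 7.37 and 11.7 in the overexpressor and 15.2, 7.89 and 11.2 in the control. It was well above background on 2 of 3 arrays in each group, replicate 2 being the exception in both, and was not tested.

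**Figure D2:**
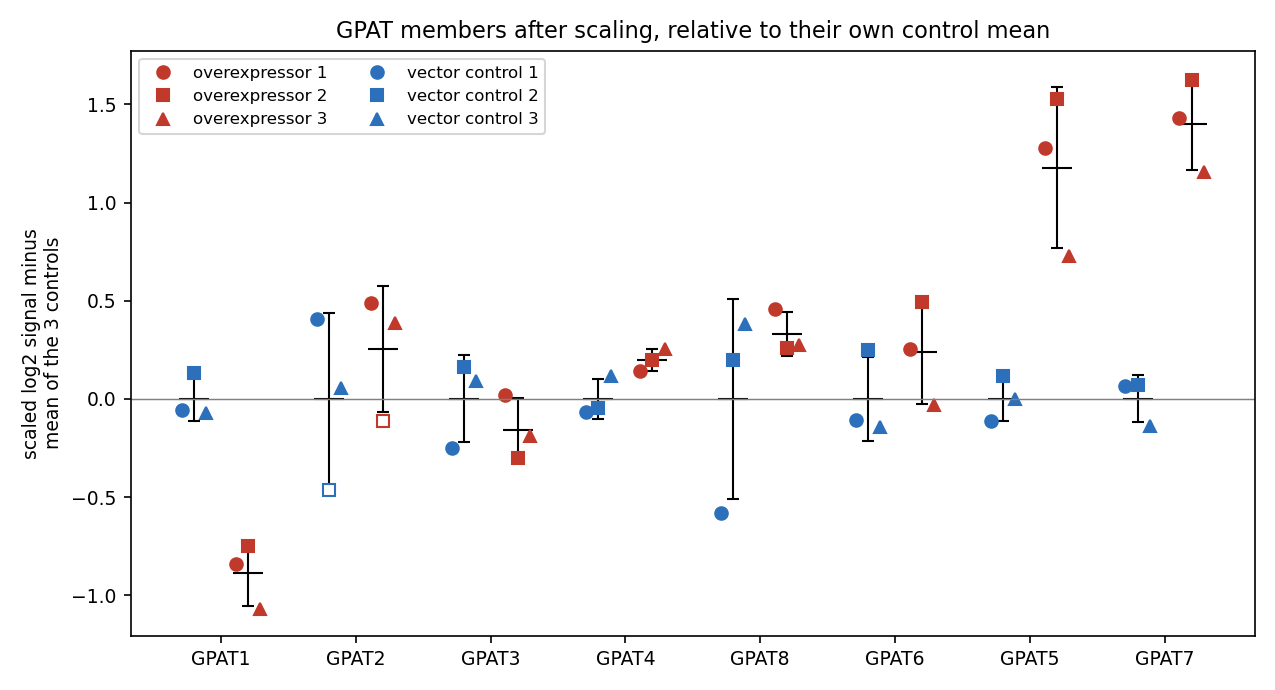
Scaled log2 signal of each GPAT on each array minus the mean of the 3 control arrays of the same gene. Colours and symbols mark group and replicate as in the key, black bars are mean and SD over 3 arrays, and open symbols are spots not well above background. Overexpressor replicate 3 is the lowest red point for GPAT1, GPAT5, GPAT6 and GPAT7, and vector control replicate 1 stands apart for GPAT8.

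Of the 7 members tested, 2 were called higher (GPAT5 and GPAT7) and 1 lower (GPAT1), with limma over all genes and a threshold of 0.05 on the adjusted p-value. Over all 23394 genes tested, 2.51% were called higher and 2.65% lower, 5.17% in all. The groups did not overlap for 3 members that were higher and 1 that was lower, where 23% and 17.6% of all genes did so, 40.6% in all. The median difference of the 7 members was 0.24 against 0.03 over all genes. Because the members were chosen with this contrast known, nothing is read from these counts. All 3 calls were lost without overexpressor replicate 1, overexpressor replicate 2 or vector control replicate 2. GPAT7 alone was called without overexpressor replicate 3, and GPAT1 and GPAT7 without vector control replicate 1 or 3. The differences themselves moved less: without single arrays GPAT7 was between 1.29 and 1.53, GPAT5 between 1.00 and 1.40 and GPAT1 between -0.96 and -0.80.

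**Figure D3:**
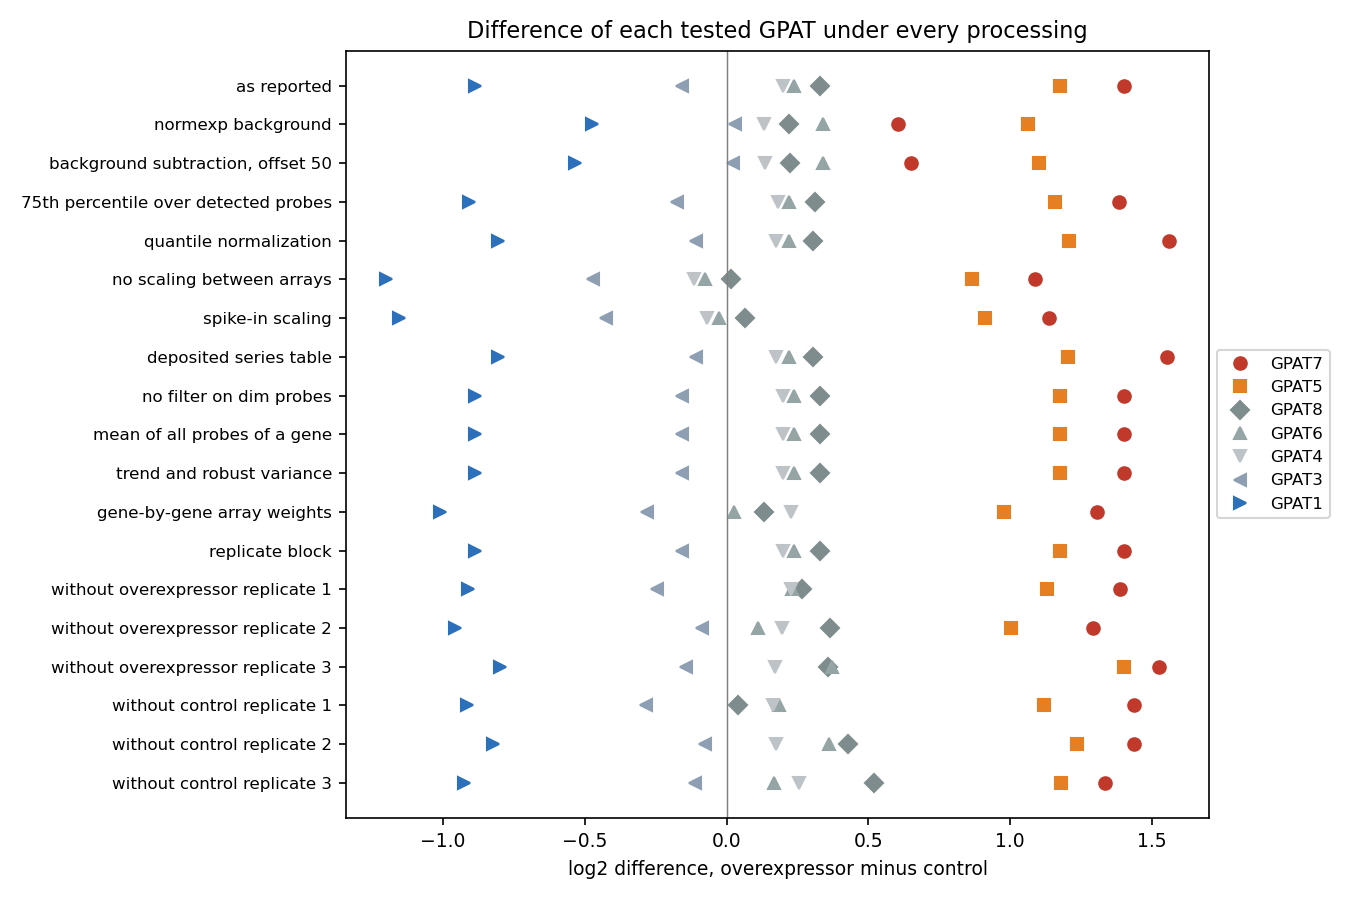
Log2 difference (overexpressor minus control) of each tested GPAT under the processing reported and under each of 18 alternatives, which are listed on the vertical axis. GPAT7 and GPAT5 stay to the right of 0 and GPAT1 to the left in every line. GPAT3, GPAT4 and GPAT6 cross 0 in 2 lines each, and GPAT8 comes as close to 0 as 0.0164. The lines for no filter, mean of probes, trend and robust variance and replicate block repeat the reported differences by construction.

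Of 14 genes for suberin monomers and their export, 4 rose and 0 fell, where 2.51% and 2.65% of all genes did, and the list median was 0.57 against 0.03 over all genes. Of the 14, 11 had an unadjusted p under 0.05, where 30.8% of all genes did. The 4 calls were 0 with normexp, with no filter on dim probes, with the replicate block and with spike-in scaling. CYP86B1, the hydroxylase of very long chain suberin acids, had a scaled signal of -2.47, -2.34 and -2.90 in the overexpressor and -3.76, -3.48 and -3.77 in the control. It rose by 1.10 (SE 0.17, limma adjusted p = 0.036), with no overlap between the groups. FAR5, a fatty acyl reductase that makes suberin alcohols, was at -0.96, -1.11 and -1.24 in the overexpressor and at -2.49, -1.95 and -1.93 in the control. It rose by 1.02 (SE 0.18, limma adjusted p = 0.042), and the groups were apart on every array.

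ABCG2, an exporter of suberin precursors, rose by 0.90 (SE 0.18, limma adjusted p = 0.049), from -1.67 ± 0.04 to -0.77 ± 0.34 (SD, n = 3 each). FACT, an alcohol caffeoyl transferase, rose by 0.46 (SE 0.0819, limma adjusted p = 0.043), from 0.16 ± 0.0818 to 0.62 ± 0.0607 (SD, n = 3 each). The other 10 did not pass. Among them the exporters ABCG20 and ABCG6 differed by 1.11 and 0.93, CYP86A1, the main root fatty acid hydroxylase, by 0.91, the feruloyl transferase ASFT by 0.51, and KCS20, a condensing enzyme, by -0.17. The groups did not overlap for 11 genes that were higher and 1, KCS20, that was lower, where 23% and 17.6% of all genes did so. Leaving out single arrays took the 4 calls to 0 without overexpressor replicate 1, overexpressor replicate 2 or vector control replicate 2, to 1 without overexpressor replicate 3 or vector control replicate 1, and to 2 without vector control replicate 3, of which 1 was among the 4. The list median was between 0.52 and 0.66 in those fits.

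Of 8 transcription factors of suberin formation 2 rose and 0 fell, where 2.51% and 2.65% of all genes did. Of the 8, 3 had an unadjusted p under 0.05, where 30.8% of all genes did. The list median was 0.66. MYB93 was at -3.20, -2.99 and -3.69 in the overexpressor and at -4.52, -4.41 and -4.57 in the control. It rose by 1.21 (SE 0.19, limma adjusted p = 0.035), with a wide gap between the groups. MYB53 was at -3.63, -3.54 and -3.90 against -4.70, -4.36 and -4.91, and it rose by 0.97 (SE 0.17, limma adjusted p = 0.043). MYB9 differed by 0.90, MYB39 by 0.96, MYB92 by 0.41, MYB107 by 0.33, MYB41 by 0.30 and NAC046 by -0.22, and none of these passed. MYB39 was not well above background on vector control replicate 1. Without that array it differed by 0.36, and MYB92 by 0.18. The 2 calls were 0 without any single array other than overexpressor replicate 3, where 1 was left. Leaving out vector control replicate 1 took the list median to 0.34, and it was 0.37 with normexp, 0.36 with subtraction and 0.26 with array weights. These probes are dim: MYB93 differed by 0.65 with normexp and 0.69 with subtraction, and MYB53 by 0.47 and 0.48. Scaling by a constant moves all genes of an array together. It cannot change how far a list median lies from that of all genes. With no scaling and with spike-in scaling the median of all genes was -0.28 and -0.23. The median of the suberin synthesis list was therefore 0.54 above it, as with the scaling used.

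Of 15 tested genes of cutin synthesis 0 rose and 1 fell, where 2.51% and 2.65% of all genes did. The list median was -0.08. That median was 0.08 without vector control replicate 2, 0.0106 without overexpressor replicate 2, 0.03 with normexp and 0.01 with subtraction. The gene that fell was LTL1, a GDSL lipase, which was at 2.17, 2.24 and 2.27 in the overexpressor and at 2.62, 2.93 and 2.99 in the control. It fell by 0.62 on the log2 scale (SE 0.12, limma adjusted p = 0.048). Of the 15, 4 had an unadjusted p under 0.05, where 30.8% of all genes did. CYP86A4, which lies next to GPAT4, differed by 0.06 (SE 0.25, limma adjusted p = 0.89). CYP86A2, a few genes from GPAT8, differed by 0.43 (SE 0.14, limma adjusted p = 0.10), and both enzymes oxidise cutin acids. The difference between the suberin and the cutin lists was not tested.

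Of 7 tested regulators of the cuticle 0 passed with limma, 2 had an unadjusted p under 0.05 (30.8% over all genes), and MYB94 was closest to the threshold at 0.39 (SE 0.0810, limma adjusted p = 0.052). MYB30 differed by -0.29 (limma adjusted p = 0.096). SHN3, an activator of cutin genes, was not well above background on any overexpressor array, and its groups overlapped. It was tested only because it was well above background on all 3 control arrays. The control mean was 2.05-fold brighter than the lowest signal well above background, or the probe's own where higher. This is no lower bound, because the groups overlapped, and the difference did not pass (limma adjusted p = 0.17). Vector control replicate 2, at -6.98, lay below the overexpressor arrays at -6.90 and -6.76. The 2.05-fold value became 1.55-fold without vector control replicate 1, 3.17-fold without replicate 2 and 1.74-fold without replicate 3. The difference of SHN3 was -0.06 with subtraction. Of 12 tested wax genes 1 rose and 0 fell, where 2.51% and 2.65% of all genes did, with a median of 0.15. Of the 12, 2 had an unadjusted p under 0.05 (30.8% over all genes). The gene that rose was CER4, an alcohol-forming fatty acyl reductase, at -1.91, -2.04 and -1.99 in the overexpressor and -2.69, -2.85 and -2.46 in the control. Its difference was 0.69 (SE 0.12, limma adjusted p = 0.043). LTL1 did not pass without any one of the overexpressor arrays or without vector control replicate 2 or 3, and CER4 passed without vector control replicate 3 alone.

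**Figure D4:**
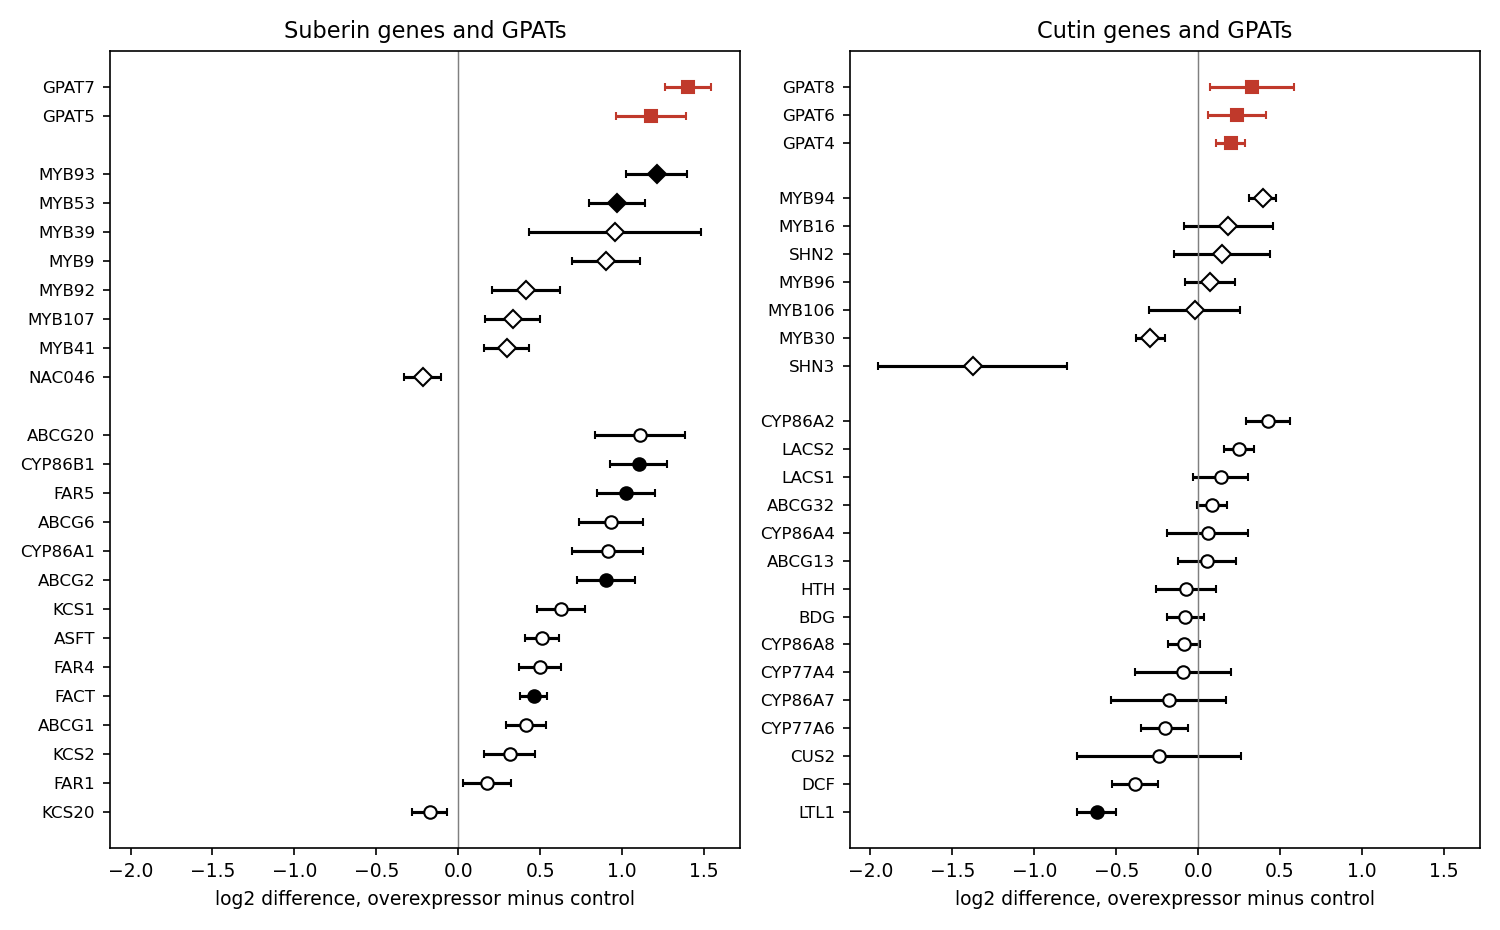
Log2 differences (overexpressor minus control) with SE for tested suberin genes (left) and cutin genes (right), 3 arrays per group. Circles are synthesis and export genes, diamonds are regulators, filled black symbols passed the limma test over all genes, and red squares are the GPATs known for each polyester, shown as a description. In the suberin panel 20 of 22 black symbols lie right of 0, while the cutin symbols lie on both sides. The place of 0 depends on the scaling, and the median of all genes is 0.03 here and -0.28 with no scaling. With no scaling 17 of the 22 suberin genes, 1 of 15 cutin synthesis genes and 1 of 7 cutin regulators are higher.

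Of 14 tested genes of glycerolipid synthesis outside the polyesters 1 rose and 0 fell, where 2.51% and 2.65% of all genes did. The median was 0.14. Of the 14, 6 had an unadjusted p under 0.05 (30.8% over all genes). The groups did not overlap for 6 that were higher and 2 that were lower, where 23% and 17.6% of all genes did so. GPDHC1, a cytosolic glycerol-3-phosphate dehydrogenase that handles the substrate of GPATs, was at 1.01, 0.92 and 0.81 in the overexpressor and at 0.0947, 0.36 and 0.43 in the control. It rose by 0.62 (SE 0.12, limma adjusted p = 0.047), and it passed without vector control replicate 1 but not without any other single array. GPAT9, the acyltransferase of membrane and storage lipids in the endoplasmic reticulum, differed by 0.11 (SE 0.0713, limma adjusted p = 0.34), and ATS1, the plastid enzyme, by 0.15 (SE 0.12, limma adjusted p = 0.42). Closest to the threshold among those that did not pass were the acyltransferase DGAT2 at 0.34 (limma adjusted p = 0.077), the glycerol-3-phosphate dehydrogenase SDP6 at -0.30 (limma adjusted p = 0.090) and the glycerol kinase GLI1 at 0.35 (limma adjusted p = 0.099).

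Suberin is laid down in the root endodermis, so markers of tissues were set beside these genes. In whole seedlings, fewer cells of a type and less RNA per cell cannot be told apart. Of 9 tested markers of the endodermis and its Casparian strip 0 passed with limma and 2 had an unadjusted p under 0.05 (30.8% over all genes), all 9 were higher in the mean of the overexpressor, and the list median was 0.75. The median of all genes was 0.03. With no scaling, with spike-in scaling or with array weights 7 of the 9 were higher, and array weights took the list median to 0.34. The summed scaled signal of the 10 markers, in multiples of an array's 75th percentile, was 11.4 to 12.5 in the overexpressor and 3.87 to 11.8 in the control. CASP1, a protein of the Casparian strip, was at 2.43, 2.41 and 2.23 in the overexpressor and at 0.0913, 1.99 and 2.23 in the control. Vector control replicate 1 was the low array. CASP5 was well above background on 1 overexpressor and 2 control arrays and was not tested. Without vector control replicate 1, CASP5 was tested as well, and 7 of the 10 markers were higher, with a median of 0.16. CASP5 entered that fit only through the 2 control arrays left. Its overexpressor values of -7.35, -6.83 and -6.10 lay near the detection limit. It passed there and was lower in the overexpressor, with a difference of -2.31 (limma adjusted p = 0.049). Nothing is read from this, since the filter and the array left out favoured it.

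Without vector control replicate 1 the median of those 9 markers was 0.24, that of the suberin synthesis genes 0.52, and GPAT5 and GPAT7 differed by 1.12 and 1.44. On that array the scaled signal of GPAT5 was the lowest of the 3 control arrays at -1.41, and that of GPAT7 was -5.63, the same as on vector control replicate 2 to this precision. SGN3, a receptor of the Casparian strip, differed by 0.88 (SE 0.27, limma adjusted p = 0.098), ESB1, a protein of the strip, by 0.86 (limma adjusted p = 0.22), and MYB36, its regulator, by 0.34 (limma adjusted p = 0.11). Of 7 markers of other root tissues 0 passed with limma and 2 had an unadjusted p under 0.05 (30.8% over all genes), with a median of 0.00674. RHD6 of root hairs differed by 0.78 (limma adjusted p = 0.12), WER of the root epidermis by 0.66 (limma adjusted p = 0.18), and PHO1 of the stele by -0.40 (limma adjusted p = 0.10). The summed scaled signal of these 7 was 139 to 166 in the overexpressor and 149 to 183 in the control. Of 5 markers of the shoot epidermis 0 passed with limma and 0 had an unadjusted p under 0.05 (30.8% over all genes), with a median of 0.0842 and ATML1, a regulator of epidermal identity, at 0.41 (limma adjusted p = 0.17), PDF2 at 0.0873 (limma adjusted p = 0.66) and ACR4 at -0.0979 (limma adjusted p = 0.67). Without vector control replicate 1 several of these were smaller: SGN3 differed by 0.58, ESB1 by 0.37, RHD6 by 0.50, WER by 0.33 and ATML1 by 0.23. The part of tissue composition in the differences was not tested.

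**Figure D5:**
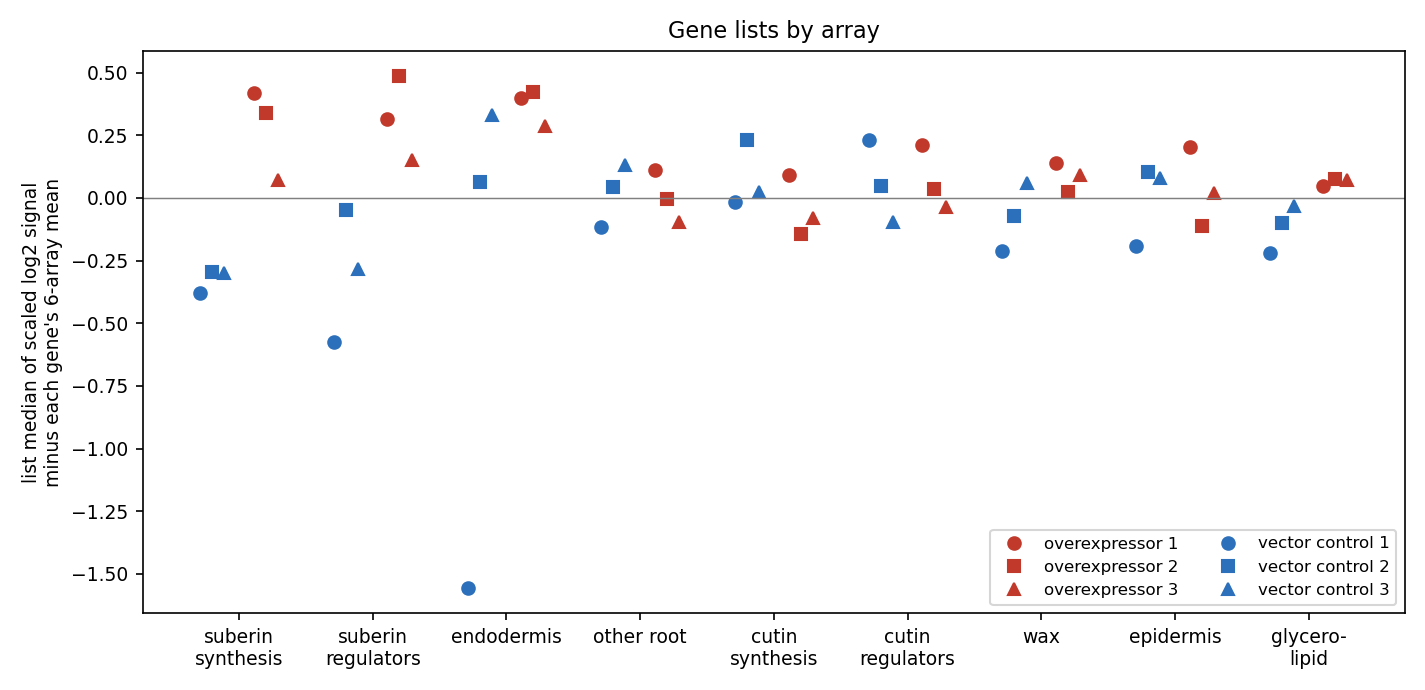
Median over the tested genes of each list of the scaled log2 signal minus the gene's mean over 6 arrays, for each array, with groups and replicates as in the key. The suberin synthesis list is higher on all 3 overexpressor arrays (0.07 to 0.42) than on the control arrays (-0.38 to -0.29), and vector control replicate 1 stands apart in the endodermis list at -1.55.

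Genes were ranked by how close their profile over the 6 arrays lay to that of GPAT7, as the root mean square distance on the scaled log2 scale after each profile was centred on its own mean. Among 23387 genes the nearest were AT1G74460 at 0.0883, AT5G37690 at 0.0950, AT3G50400 at 0.11, AT1G68850 at 0.11 and HOL2 (AT2G43920) at 0.12. Their differences were 1.27, 1.25, 1.22, 1.21 and 1.23. MYB93 followed at rank 6, CYP86B1 was at rank 13 and GPAT5 at rank 14, with a distance of 0.18. ABCG20 and MYB53 were at ranks 35 and 45. Of the other genes of the suberin lists, ABCG6 was at rank 58, ABCG2 at 64, CYP86A1 at 73, FAR5 at 106 and MYB9 at 140. KCS1 was at rank 725, FAR4 at 765, ASFT at 944, FACT at 1152 and ABCG1 at 1400. MYB107 was at rank 1939, KCS2 at 2261, MYB41 at 2890 and MYB92 at 3149. Furthest were FAR1 at rank 7030, MYB39 at 8730, KCS20 at 16093 and NAC046 at 17290. Genes of other lists ranked ahead of some suberin genes. The nearest were CER4 of wax at 447, GPDHC1 of glycerolipids at 497, SGN3 of the endodermis at 578 and RHD6 of root hairs at 833. The nearest of cutin synthesis was CYP86A2 at 1742, of the cuticle regulators MYB94 at 1892 and of the shoot epidermis ATML1 at 2177. GPAT4 was at rank 5970, GPAT6 at rank 3687, GPAT8 at rank 7109, GPAT3 at rank 16391 and GPAT1, with the opposite direction, at rank 21638. The distance uses the contrast that chose GPAT7, so these ranks are a description.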

How the data were processed

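Total RNA was hybridised to 6 one-colour Agilent arrays. Per the file headers, the authors made spot intensity with Agilent Feature Extraction 11.5.1.1, with background subtracted and spatial trends removed within an array. Flags of 0 or 1, which are other values per the file headers, mark spots well above background, saturated or outlying. The authors' deposited series table holds intensity that is equal in distribution across arrays, with no method given in the sources used here. Log2 processed signal was scaled by each array's 75th percentile over 35635 probes. Outlier spots were set to missing, and a probe was tested if well above background on all 3 arrays of a group (23523 probes, 23394 genes, a gene being its brightest probe). The comparison used limma 3.58.1 (lmFit, eBayes) under R 4.3.3, adjusted by Benjamini-Hochberg over all genes, and the code was tested on simulated data. Names follow the RefSeq gene table of TAIR10.1, which held all 107 listed loci. Its build differs from that named in the scanner files, so no coordinates are given.

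Members and lists were chosen with earlier results of these data known. Named were all members, the list genes that passed with groups that did not overlap (otherwise the 3 with the smallest adjusted p), CYP86A4 and CYP86A2, and the 5 genes nearest to GPAT7. Chosen for naming after values were seen were list genes that did not pass in lists where others did, and GPAT9, ATS1, CASP1 and CASP5. Figures were drawn with matplotlib 3.10.9. The number of arrays limits the precision. Alternatives changed the background, scaling, filter, probe summary, variance model, array weights, replicate block and single arrays. No scaling and spike-in scaling were added after the data were seen. The normexp and subtraction corrections used median signals and local backgrounds in place of the processed signal.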

Additional observations from a re-analysis of the deposited data

How the results depend on the processing

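The 1209 genes called were 4 with normexp, 2563 with no scaling, 1932 with spike-in scaling, 188 with no filter, 5561 with array weights and 14 with the replicate block, and 35 to 1191 without single arrays. Apart from the ranges without single arrays, counts that moved by a factor of 1.5 or less are not listed here. The GPAT calls, 3 as reported, were 0 with normexp, 1 with no filter and 0 with the replicate block, and 0 to 2 without single arrays. GPAT5 was also not called with spike-in scaling. The suberin synthesis calls, 4 as reported, were 0 with normexp, 2 with the percentile over detected probes, 1 with no scaling, 0 with spike-in scaling, 0 with no filter, 8 with array weights and 0 with the replicate block, and 0 to 2 without single arrays. The suberin regulators, 2 as reported, gave 0 with normexp, 1 with no scaling, 1 with spike-in scaling, 0 with no filter and 0 with the replicate block, and 0 to 1 without single arrays. The glycerolipid call, 1 as reported, became 0 with normexp, 2 with subtraction, 0 with the percentile over detected probes, 2 with no scaling, 0 with spike-in scaling, 0 with no filter, 5 with array weights and 0 with the replicate block, and 0 to 1 without single arrays. The cutin synthesis call, 1 as reported, became 0 with normexp, 2 with subtraction, 0 with the percentile over detected probes, 0 with no filter, 2 with array weights and 0 with the replicate block, and 0 to 1 without single arrays. The wax call, 1 as reported, became 0 with normexp, 0 with no scaling, 0 with spike-in scaling, 0 with no filter and 0 with the replicate block, and 0 to 1 without single arrays. The cutin regulators, 0 as reported, gave 1 with quantile normalization, with no scaling, with spike-in scaling, with the deposited table and with array weights. The endodermis markers, 0 as reported, gave 1 with array weights and 0 to 1 without single arrays. The other root markers gave 1 with no scaling and 1 with array weights. The cause of these changes was not tested, other than that the block and single-array fits leave fewer degrees of freedom.

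GPAT7 passed in 13, GPAT1 in 11 and GPAT5 in 8 of 18 alternatives, and each kept its direction in all 18. Some alternatives could not change the difference of a gene with 1 probe. These were no filter, the mean of probes, the trend and robust variance and the replicate block, where the direction was fixed in advance. All 6 suberin calls were kept with subtraction, quantile normalization, the deposited table, the mean of probes, the trend and robust variance and array weights. Of the 22 suberin genes, 17 were higher with no scaling and 20 with the scaling used. The labels do not say that replicate numbers pair the samples. The correlations between deviations of arrays with the same number were -0.0857, -0.000468 and -0.0226. Those of arrays with unlike numbers lay between -0.18 and 0.14. With 3 arrays per group these values cannot decide whether arrays with the same number were paired. The dim probe of GPAT7 gave 0.60 to 1.56 over the alternatives, lowest with normexp. Slide could not be fitted as a block, since each slide held 1 group.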

Other observations

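Within the overexpressor group, replicate 3 was the lowest array for 13 of 14 suberin synthesis genes and for 7 of 8 suberin regulators. It was the lowest for 4 of the 7 tested GPATs (GPAT1, GPAT5, GPAT6 and GPAT7), where 33.3% of all genes had it lowest. It was also the lowest for 6 of 9 endodermis markers, 6 of 7 markers of other root tissues, 8 of 15 cutin synthesis genes and 3 of 5 shoot epidermis markers. It was the lowest for 2 of 7 cuticle regulators, 2 of 12 wax genes and 2 of 14 glycerolipid genes. This count was chosen after the values were seen and carries no test, and its genes share the same 3 arrays.

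The protein-coding genes next to the GPATs were looked up in the RefSeq order, 2 on each side. Of 31 tested neighbours 1 rose and 1 fell with limma, where 5.17% of all genes were called. AT4G00390, next to GPAT8, fell, with a difference of -1.44 (SE 0.22, limma adjusted p = 0.034), and AT4G01935, near GPAT3, rose by 0.53 (SE 0.0708, limma adjusted p = 0.028). The genes directly beside GPAT7 were LBD33 at -0.35 and MYB33 at 0.12, and those beside GPAT5 were AT3G11420 at 0.00818 and MYB65 at 0.30. None of these 4 passed, and their limma adjusted p-values were 0.44, 0.32, 0.96 and 0.26.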
